A study of Drosophila melanogaster with 3 samples.

Results

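CG31627-GFP binding was examined at 6 genes: ush, which encodes the zinc finger cofactor U-shaped, and the 5 genes for the GATA factors of Drosophila melanogaster, pnr, srp, grn, GATAd and GATAe. They are 6 of 18164 genes annotated on the 6 chromosome arms, and were chosen by name, with the peak ranks of these same libraries already known. The values below are therefore a description, and no test was made of them. All 3 libraries belong to 1 group. Each is a biological replicate of whole animals at the white prepupal stage, males and females pooled, from a transgenic line that makes CG31627 with GFP fused at its C-terminus. The description names an antibody to GFP for the precipitation, while another label gives the antibody as CG31627. Whole animals were used, so tagged protein from every tissue contributes to each library, and strong binding in few cells cannot be told apart from weak binding in many. No other genotype, stage or untagged sample was analysed here, and so no comparison between conditions can be made.

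U-shaped belongs to the Friend of GATA family. These proteins have many zinc fingers, bind the amino-terminal zinc finger of a GATA factor, and bring corepressors to its target genes. On the back of the fly, U-shaped restrains the activation of the proneural genes achaete and scute by Pannier (the product of pnr), and so limits where sensory bristles form. In blood cell development it acts with Serpent (the product of srp), which is also needed in the fat body and the early endoderm. Pannier also acts in the dorsal ectoderm and the heart. Grain (the product of grn) shapes legs and spiracles and specifies motor neurons, and GATAe works in the midgut. GATA factors recognise the letters GATA with an A or T before them and A or G after them.

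Each file is a list of peaks on genome build dm6, each with a summit and the authors' signal value. The pooled libraries gave 27240 peaks, background included, and 7717 peaks were kept by the irreproducible discovery rate (IDR), a measure of how well peaks hold their rank between replicates. Replicates 1, 2 and 3 gave 30000, 28593 and 25547 peaks, and 17347, 8592 and 10806 of these reached q 0.05. The lists hold no read counts, so depth is unknown. No source used here gives the scale of the signal. It is used within a list to rank peaks, with rank 1 the strongest, and to describe them. Ratios of signals are ratios of the deposited values only, and are not measured differences in binding. For each gene, summits were counted in a window of the annotated gene body plus 5 kb on either side. A promoter summit is one within 500 bp of an annotated start site.

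The 6 genes differed widely in these lists. The ush window held 16 IDR-thresholded summits, among them rank 2 of all 7717. The srp and grn windows held 1 each, and those of pnr, GATAd and GATAe held 0. No IDR-thresholded summit fell within 500 bp of a start site of any of the 6 genes (0 of 6), where 22.3% of all genes had one. At least 1 summit lay in the window of 3 of the 6 genes, where 56.8% of all genes had one. Since the genes were selected with these counts known, neither share is read as a result about them.

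The reference sequences around 6 of the 18 summits are printed below. These are the 3 at ush that ranked within the strongest 500, the single summits of srp and grn, and another ush summit. That ush summit has more GATA matches within 50 bp than any other of the 18. Each sequence is 101 bases of the Release 6 reference on the plus strand, centred on the summit. The sequences do not show which bases the protein contacted, or whether contact was direct. The positions are chr2L:481037-481137 for ush rank 2, chr2L:480030-480130 for ush rank 189, chr2L:530388-530488 for ush rank 296, chr2L:493437-493537 for ush rank 4590, chr3R:15984587-15984687 for srp rank 2223 and chr3R:8154177-8154277 for grn rank 5557. Capitals mark matches to a GATA motif, the letters GATA with A or T before them and A or G after them (AGATAA is one form), on either strand.
ush rank 2: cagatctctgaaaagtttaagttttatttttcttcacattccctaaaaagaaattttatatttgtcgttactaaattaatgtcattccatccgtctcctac
ush rank 189: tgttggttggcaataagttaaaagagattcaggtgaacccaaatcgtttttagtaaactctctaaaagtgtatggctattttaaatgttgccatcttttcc
ush rank 296: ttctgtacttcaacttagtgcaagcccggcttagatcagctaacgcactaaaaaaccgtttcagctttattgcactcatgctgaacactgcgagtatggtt
ush rank 4590: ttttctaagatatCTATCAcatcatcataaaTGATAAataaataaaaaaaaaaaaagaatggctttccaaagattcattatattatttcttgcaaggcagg
srp rank 2223: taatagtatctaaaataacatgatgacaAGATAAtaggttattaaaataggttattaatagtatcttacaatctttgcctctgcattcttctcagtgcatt
grn rank 5557: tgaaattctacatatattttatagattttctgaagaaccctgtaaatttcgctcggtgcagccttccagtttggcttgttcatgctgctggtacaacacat
The 3 strongest ush windows hold no such match, although the wider peak of rank 2 holds 1. The ush window of rank 4590 holds 2 and the srp window holds 1.

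The ush gene (FBgn0003963) spans chr2L:476220-540560 on the plus strand, 64341 bp, and has 5 annotated transcripts from 4 start sites. The transcripts ush-RD and ush-RE begin at the first start site. In ush-RE a further exon interrupts the stretch that in ush-RD is a single first intron of 49060 bp. Another gene, cbt, lies inside that intron on the opposite strand. It encodes Cabut, a zinc finger transcription factor of the TIEG family. Of the 16 IDR-thresholded summits in the window, 14 lay in the ush gene body, 13 in introns. In ush-RD the first intron held 12 of them and the second intron, of 10586 bp, held 2. The short introns toward the 3′ end held 0.

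The strongest ush summit, with signal 4959, stood at rank 2 in the pooled list and at rank 2 in each of the 3 libraries. Its signal was 2093 in replicate 1, 1323 in replicate 2 and 1558 in replicate 3. The rank was identical in the 3 libraries, while signals of different lists are not on a stated common scale. The peak covered chr2L:480575-481330, 756 bp, and 9 of the 7717 IDR-thresholded peaks were wider, against a median width of 404 bp. Its summit lay in the first ush intron, 4867 bp downstream of the first ush start site and 1399 bp upstream of the cbt start site. Cbt is the nearest annotated start, so position alone does not assign this summit to ush.

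The ush intron peak lay away from start sites. Of the 30 strongest summits, 11 were more than 500 bp from any start. The pooled list had CG14100 at rank 1 with signal 6697, 87 bp from a start site, and Ugalt at rank 3 with signal 4503, 38 bp from a start site. Among the 4494 IDR-thresholded summits more than 500 bp from any annotated start, the ush summit came first. The next such summit, rank 7 at Lk6, had signal 4252, so the ush signal was 1.17 times as high. Among the 3709 summits more than 1000 bp from any start, the ush summit again came first, with 1.25 times the signal of the next, rank 9 at signal 3969.

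Another strong summit, rank 189 with signal 1228, lay 1007 bp from the first, toward cbt and 392 bp upstream of its start site. Its rank was 201 in replicate 1, 189 in replicate 2 and 200 in replicate 3. Another, rank 296 with signal 1018, lay deep in the gene, in the second intron of ush-RD and 6702 bp downstream of the nearest ush start. That one ranked 353, 272 and 297 in replicates 1, 2 and 3, and no other gene had a nearer start site. These 3 were the only summits of the 6 genes within the strongest 500.

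**Figure D1:**
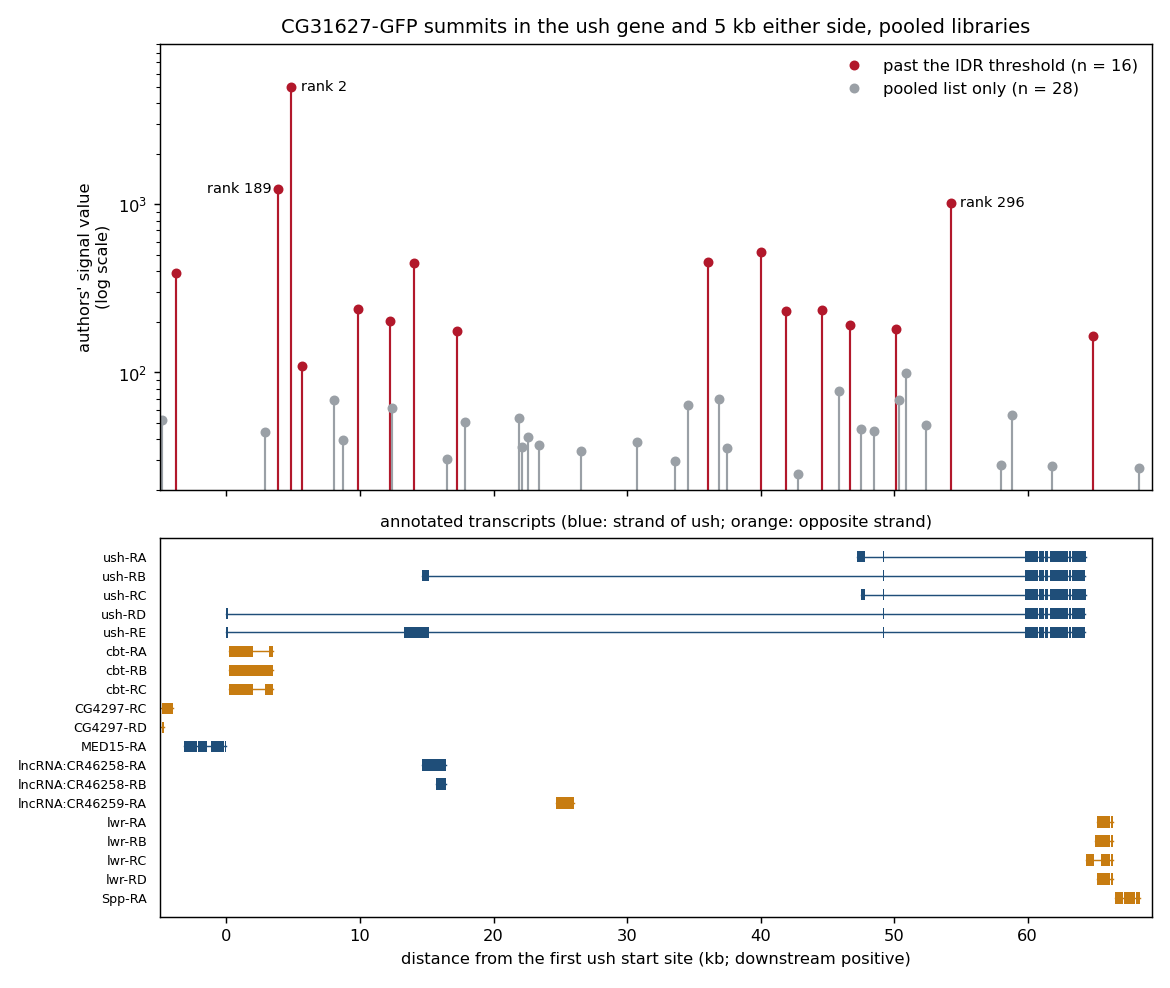
Summits of the pooled libraries at ush. The upper panel plots the authors' signal value (log axis) against distance from the first ush start site in kb, with the 16 IDR-thresholded summits in red and the other 28 pooled summits in grey; the lower panel draws the annotated transcripts. The summits of rank 2 and rank 189 stand beside cbt in the first intron, and that of rank 296 stands in the second intron.

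The other 13 ush summits lay nearer the middle of the list. Over all 16, the median signal was 236.5, against 206.6 over all 7717 IDR-thresholded peaks, and 10 of the 16 were among the 3858 strongest. The next 4 by signal lay 39991 bp downstream of the first start (rank 1044, signal 521.0, with ranks 1240, 1217 and 846 in replicates 1, 2 and 3), 36033 bp downstream (rank 1332, signal 451.7), 14048 bp downstream (rank 1335, signal 450.6) and 3753 bp upstream (rank 1650, signal 392.3). The one at rank 1335 fell in a non-coding exon of ush-RE, 567 bp upstream of the ush-RB start and of the long non-coding RNA gene lncRNA:CR46258. The upstream one lay between genes, 267 bp from the start of CG4297 and 546 bp from that of MED15, a Mediator subunit gene. Thus 2 of the 16 summits, this one and the rank 189 summit at cbt, were promoter summits of another gene.

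The remaining 9 had signals from 109.5 to 238.2. They included a group between 9844 and 17267 bp and a group between 41931 and 50118 bp downstream of the first start, at ranks 3276 to 4590. Of these, the summit of rank 4220 with signal 190.6 lay 520 bp upstream of the ush-RA start, closer to a ush start than any other but outside the promoter window. A promoter window of 1000 bp would count it. The largest gap between neighbouring summits inside the gene was 18766 bp, in the middle of the first intron of ush-RD. The summit of rank 4935 lay 562 bp past the end of ush, in a non-coding exon of lwr-RC, a transcript of the gene for the SUMO-conjugating enzyme. In all, a ush start was nearer than that of any other gene for 6 of the 16. For those of ranks 3276, 3942 and 1335, the ush-RB start and that of lncRNA:CR46258 were equally near, at 4771, 2393 and 567 bp.

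These 16 ush summits have the same ranks in the IDR-thresholded list as in the pooled list. The pooled list is made from the same 3 libraries, so some agreement with them was fixed in advance. Of the 16 ush summits, 15 had a summit within 100 bp among the 7717 strongest peaks of every library. The exception was the weakest, 5685 bp downstream of the first start at rank 7283 in the pooled list. It ranked 8084 in replicate 1, 5557 in replicate 2 and 8070 in replicate 3. Across the 16, the median rank was 2872 in replicate 1, 2919 in replicate 2 and 3280 in replicate 3. Counted freely among the 7717 strongest peaks, the ush window held 16, 16 and 18 summits in replicates 1, 2 and 3 (16.7 ± 1.15, SD, n = 3). Over all peaks, background included, it held 51, 37 and 37.

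**Figure D2:**
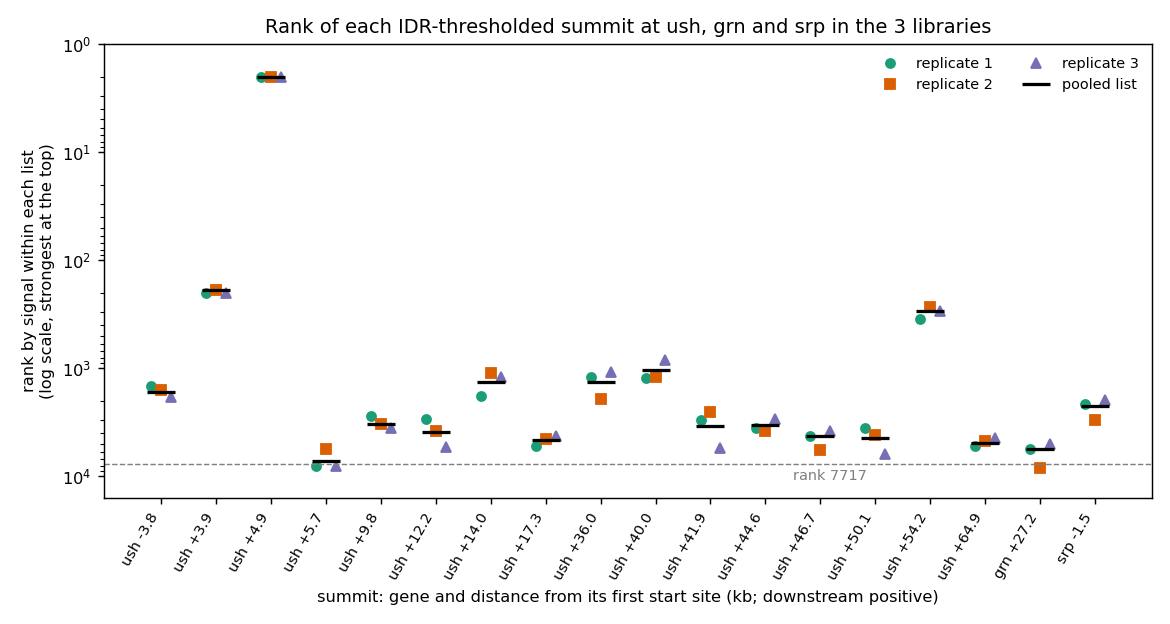
Rank by signal of the 18 IDR-thresholded summits in the windows of ush, grn and srp. The vertical log axis gives rank with the strongest at the top, the horizontal axis names each summit by its distance from the first start site in kb, symbols are the 3 libraries, bars the pooled list, and the dashed line marks rank 7717. Rank 2 is shared by all 3 libraries at one ush summit, and the weakest ush summit and the grn summit fall past the line in at least 1 library.

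The number of summits was set beside that of other genes, since a long gene has more room. Of 13945 protein-coding genes, 11 (0.0789%) had at least 16 IDR-thresholded summits in their window, ush included, and the median gene had 1. The count placed ush at rank 10, with 9 genes above it and 1 other equal. The ush window is 74.3 kb long. Of the 197 other protein-coding genes with a window at least as long, 7 had 16 or more summits, and their counts ranged from 0 to 34 with a median of 4. Per length, ush had 2.15 summits per 10 kb, where the 6 arms as a whole had 0.576, and 1324 protein-coding genes (9.49%) had more than ush.

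The 5 protein-coding genes closest to ush in count, among those with at least as many summits, were heca, tara, Mnt, SKIP and shn. The gene heca (headcase) had 16 summits in 104.5 kb, with its best at rank 458. The gene tara (taranis) had 17 in 44.7 kb, with its best at rank 182. Mnt, which encodes a repressor that pairs with Max, had 18 in 39.9 kb with its best at rank 739, and SKIP had 18 in 172.3 kb with its best at rank 832. The gene shn, which encodes the zinc finger protein Schnurri of the Dpp pathway, had 18 in 68.3 kb with its best at rank 234. None of the 5 had a summit as strong as the rank 2 of ush. Like ush, heca, tara and SKIP had no promoter summit, while Mnt and shn had one. The count is the whole of this likeness, and 3 genes tied at 18.

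The GATA factor genes srp, GATAe and pnr are neighbours on arm 3R, all on the plus strand. The gene srp (FBgn0003507) spans chr3R:15986152-16004085, GATAe (FBgn0038391) chr3R:16009105-16019133 and pnr (FBgn0003117) chr3R:16026079-16041796. Their windows overlap, and the stretch they cover, 65.6 kb, is close in length to the ush window. It held 1 IDR-thresholded summit, or 0.152 per 10 kb, against 2.15 at ush. In all peaks of the pooled list, background included, the same stretch held 23 summits and the ush window held 44. Of these 23, the windows of srp and GATAe share 3 and those of GATAe and pnr share 1.

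The 1 thresholded summit of the stretch lay upstream of srp. It stood at rank 2223 with signal 319.1 in a peak at chr3R:15984521-15984722, between genes, 1515 bp upstream of the first srp start site and 1544 bp upstream of that of lncRNA:CR44133. Its rank was 2140 in replicate 1, 3016 in replicate 2 and 1994 in replicate 3, and it was among the 7717 strongest in each, with signals of 134.5, 63.9 and 117.3. No annotated start lay nearer than that of srp. The window around this summit holds the AGATAA match shown above.

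The summits nearest to pnr stayed below the threshold. The strongest in the pooled list, rank 8541 with signal 91.1, lay 2148 bp upstream of the first pnr start, in the stretch that the windows of pnr and GATAe share. One other summit in the pnr body, 10139 bp downstream of the first start, had pooled rank 11302 and was among the strongest in replicate 3 alone, at rank 6471. The nearest IDR-thresholded summit to any pnr start was 14951 bp away, at the promoter of IKKbeta, a kinase gene of the immune response. For GATAe the nearest was the srp summit, 24468 bp away.

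Grain lies apart on 3R, on the minus strand. The gene grn (FBgn0001138) spans chr3R:8147368-8181444, and its 1 thresholded summit fell in intron 5, 27217 bp downstream of its start site. That summit had rank 5557 and signal 147.6. Its rank was 5617 in replicate 1, 8472 in replicate 2 and 5013 in replicate 3, so replicate 2 left it out of its 7717 strongest, with signal 22.8 and a q value of 0.0468. Its signal was 61.6 in replicate 1 and 55.9 in replicate 3. Without replicate 1 or without replicate 3, the grn summit no longer met the requirement of being among the strongest of both other libraries. In replicate 2 the only grn summit among the strongest was another one, at rank 6072, which in the pooled list had rank 8290 and signal 95, just below the threshold.

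GATAd (FBgn0032223) is the smallest of the 6 genes, at chr2L:10333734-10339185, and had no thresholded summit. Its strongest pooled summit, rank 8070 with signal 98.1, lay 5650 bp downstream of the first start and past the annotated end of the gene. In replicate 1 that site was among the strongest, at rank 6266. The nearest IDR-thresholded summit was 22780 bp from its start, at the promoter of CtsL4.

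**Figure D3:**
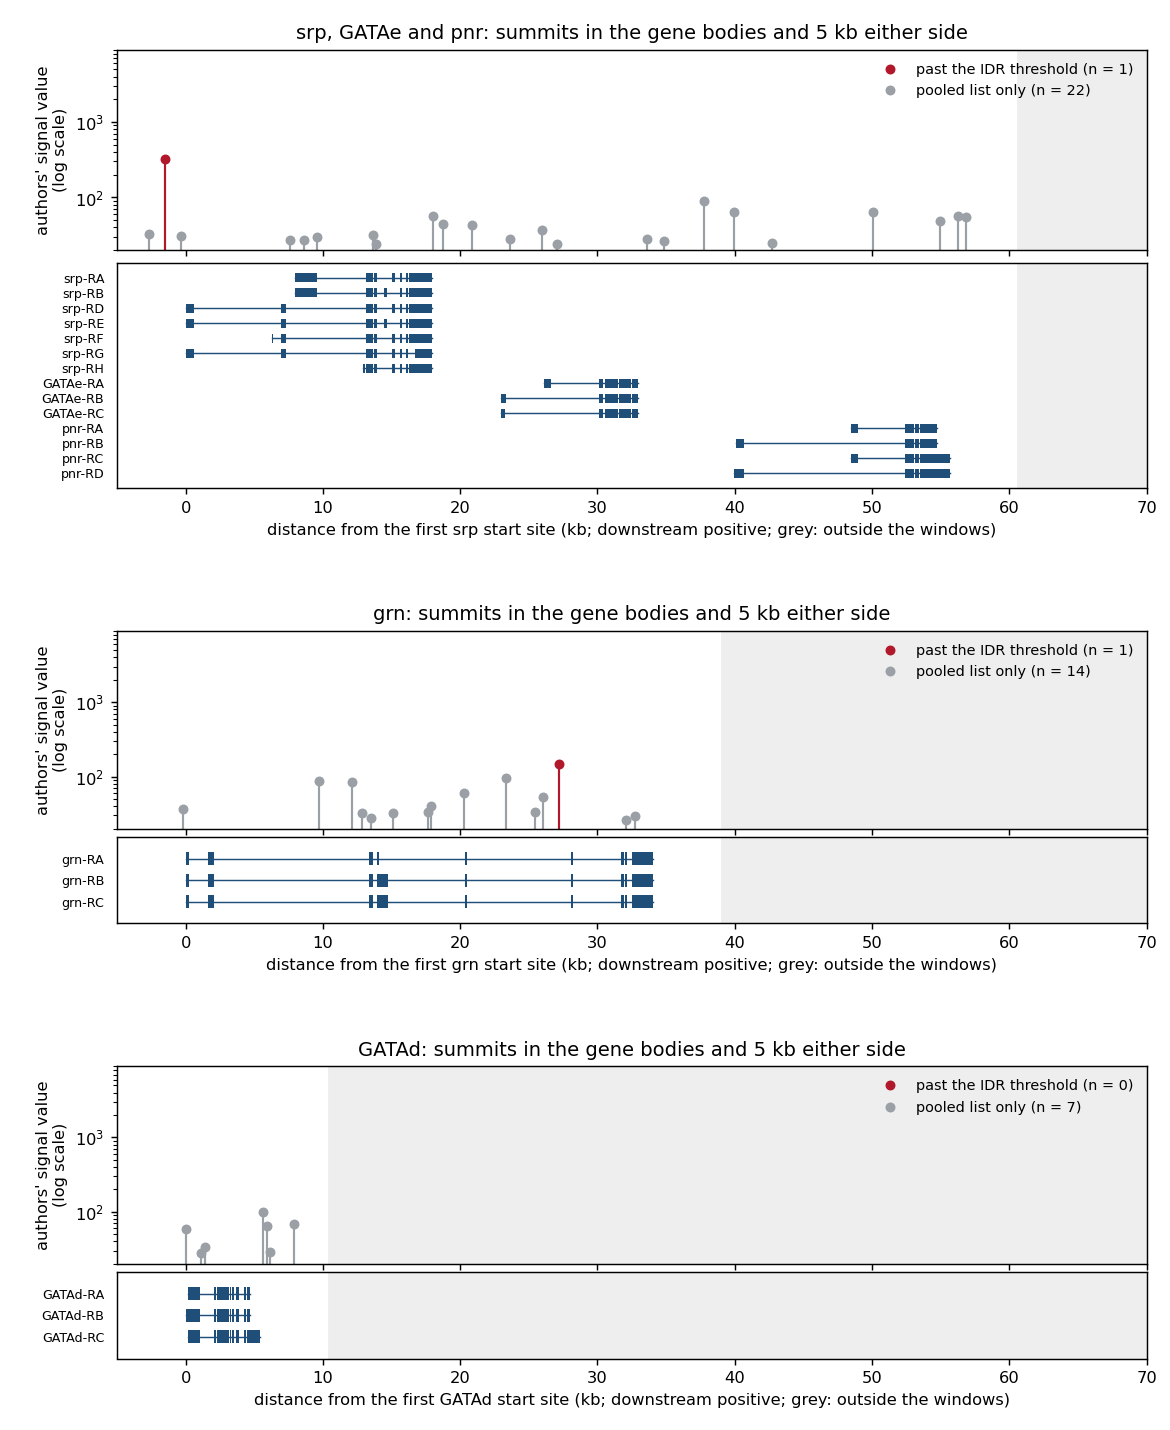
Summits of the pooled libraries at the 5 GATA factor genes, drawn as for ush, with the authors' signal value on a log axis against distance from the first srp, grn or GATAd start site in kb. All 3 loci are on 1 horizontal scale and grey areas lie outside the windows. The srp stretch and grn show 1 red IDR-thresholded summit each, with signals 319.1 and 147.6, and GATAd shows none.

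At the start sites themselves all 6 genes had a summit in the pooled list, where background is kept. A pooled promoter summit was present at 43.4% of all genes, and one with a q value of 0.05 or less at 31.3%. Of the 6 genes, 2 reached that q value. GATAd had a summit 4 bp from a start site at pooled rank 12117 (q 0.0253), with ranks 10096, 11458 and 19328 in replicates 1, 2 and 3. The gene pnr had one 54 bp downstream of a start at pooled rank 11436 (q 0.0133), with rank 10210 in replicate 1, rank 17180 in replicate 2 and no promoter summit in replicate 3.

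The promoter summits of the other 4 genes were weaker. The ush-RC start had one 6 bp away at rank 14689 (q 0.138). The same summit lies within 500 bp of the ush-RA start, and the starts of ush-RB and of ush-RD and ush-RE had none in the pooled list. The ush promoter summit missed the IDR threshold, and that the 16 thresholded summits of the window ranked above it follows from that. The grn promoter summit ranked 17802 (q 0.368), and that of GATAe ranked 17796 (q 0.368). The gene srp had 2, at ranks 20655 and 23533 (q 0.596 and 0.786). In no library was a promoter summit of any of the 6 genes among the 7717 strongest, where 22.4% of all genes had one in replicate 1, 20.5% in replicate 2 and 23.1% in replicate 3.

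**Figure D4:**
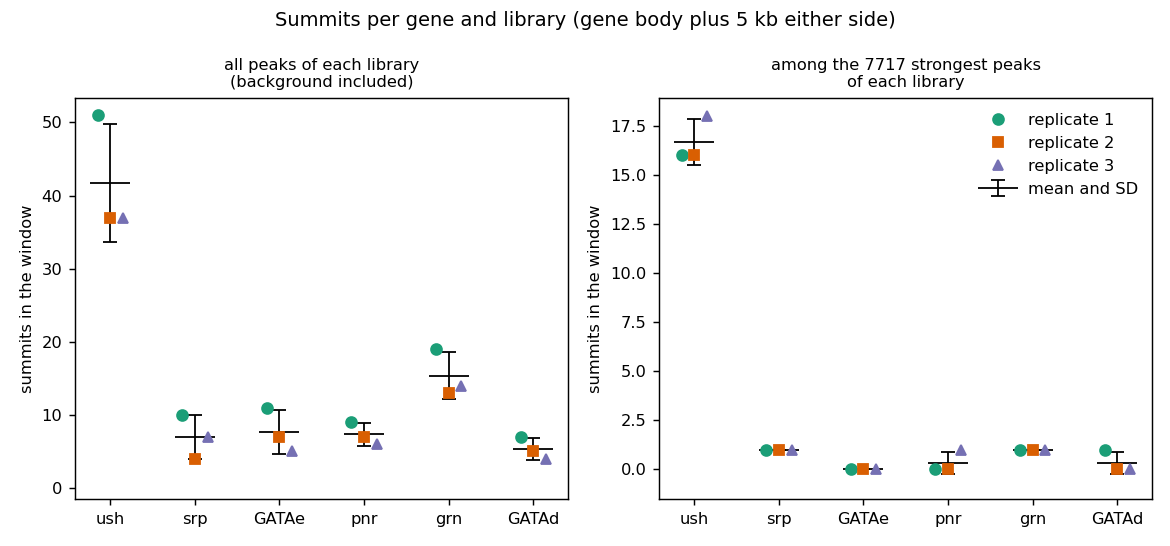
Summits per gene in each of the 3 libraries, over all peaks of the library (left) and among its 7717 strongest (right); the vertical axes count summits in the gene body plus 5 kb on either side, symbols are libraries, and bars give the mean and SD (n = 3). In the right panel ush has 16 to 18 summits and each GATA factor gene has 0 or 1.

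Over all peaks of a library, background included, the grn window held 19, 13 and 14 summits in replicates 1, 2 and 3 (15.3 ± 3.21, SD, n = 3), against 51, 37 and 37 at ush. GATAe held 11, 7 and 5, pnr 9, 7 and 6, srp 10, 4 and 7, and GATAd 7, 5 and 4. These windows differ in length, and per 10 kb the gap was smaller than in counts. Over all peaks, replicate 1 had 6.86 summits per 10 kb at ush, 5.49 at GATAe, 4.53 at GATAd, 4.31 at grn, 3.58 at srp and 3.5 at pnr. Replicate 2 had 4.98 at ush, and from 1.43 (srp) to 3.49 (GATAe) at the GATA factor genes. Replicate 3 had 4.98 at ush, and from 2.33 (pnr) to 3.18 (grn) at those genes. In the pooled list the density was 5.92 per 10 kb at ush, 4.53 at GATAd, 4.49 at GATAe, 3.94 at srp, 3.4 at grn and 2.72 at pnr. Among the 7717 strongest, srp and grn held 1 summit in each library and GATAe held 0 in each. The pnr window held 1 in replicate 3 alone and that of GATAd 1 in replicate 1 alone. The ush window, the longest of the 6 at 74.3 kb, held 16 to 18. In the IDR-thresholded list, 0.0789% of protein-coding genes had at least as many summits as ush. The 6 genes were chosen with such counts known, so the gap is not read as a result about them.

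Values just inside and just outside the IDR threshold were close. The weakest thresholded summit of the 6 genes was the ush one of signal 109.5 at rank 7283. The strongest that missed was also at ush, at rank 7973 with signal 99.5. Next came the one in the GATAd window near the SamDC start (98.1), one at grn (95) and the summit between GATAe and pnr (91.1). Altogether the 6 windows held 89 pooled summits counted once, 40 of them with a q value of 0.05 or less.

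GATA matches were present at a minority of these summits. Within 50 bp of the summit, 5 of 18 (27.8%) held the GATA motif described above on either strand, against 22.5% of all 7717. At ush the share was 4 of 16 (25%). Windows of the same length centred on annotated start sites held a match in 14.9% of 23998 cases. No A or T share is given for those start-site windows, so this comparison is not matched for base composition. Over the whole peak, 8 of 18 peaks held a match (44.4%), against 49.2% of all peaks. Within 50 bp of the summit, the ush matches were at ranks 3276, 3335, 4422 and 4590. Over the whole peak, matches were also present at ush ranks 2 (1 match), 1332 (1 match) and 4220 (3 matches).

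Other words were counted in the same windows. The letters CGATA, the core of the site of the insulator protein BEAF-32, occurred in 0 of 18 windows, against 15.4% of all, and in 10 of the 71 windows of pooled summits below the threshold at the 6 genes (14.1%). The DNA replication-related element TATCGATA, which contains CGATA, occurred in 0 of 18, against 1.74%, and in 0 of the 71. The word TTTAAAAA occurred in 0 of 18, against 6.12%, and in 2 of the 71 (2.82%). Each was searched on both strands. Base composition was alike, with a median of 66.3% A or T around the ush summits and 67.3% around all. Every 31-base word of the 18 peaks occurs at a single place on the 6 chromosome arms. Sequence off the arms and diverged repeats were not searched.

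Partners of U-shaped in corepression were among the genes with promoter summits. Of 8 genes for CtBP and for the subunits of the Mi-2 deacetylase complexes, 4 had an IDR-thresholded promoter summit (50%, against 22.3% of all genes). All 8 had a summit in the window, against 56.8% of all genes. MBD-like, a subunit with a methyl-CpG-binding domain, had one at rank 1404, with ranks 1638, 1216 and 1696 in replicates 1, 2 and 3. MEP-1, a zinc finger partner of Mi-2, had one at rank 1420, with library ranks 1491, 1915 and 1244. MTA1-like had one at rank 2692, with library ranks 3270, 2353 and 2859. Caf1-55, a histone-binding protein, had one at rank 7553. It ranked 5188 in replicate 1 and 9491 in replicate 3, and replicate 2 had no matching summit.

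The other 4 partner genes had IDR-thresholded summits only away from their starts. The window of Mi-2, the chromatin remodelling ATPase, held 5 thresholded summits, and so did that of simj. Those of HDAC1, the deacetylase, and CtBP, a corepressor that binds U-shaped directly, held 2 and 1. In the pooled list, promoter summits below the threshold were present at simj (rank 8044), CtBP (rank 9775) and Mi-2 (rank 10791), and HDAC1 had none.

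Other lists held genes that act with the GATA factors in particular tissues. Of 19 genes of thorax and bristle patterning, 2 had an IDR-thresholded promoter summit (10.5%, against 22.3% of all genes). They were da, which encodes the bHLH partner of Achaete and Scute, at rank 3226, and Bx, which encodes a LIM-only protein, at rank 6366. The Bx window held 13 thresholded summits. The proneural genes ac and sc, the best known targets of Pannier and U-shaped, had 0 in their windows. Their relative l(1)sc in the same list had 1, and 56.8% of all genes had at least 1. The pair was named after its values were seen. Of 16 hemocyte genes, 0 had a promoter summit (against 22.3% of all genes). A summit lay in the window of 11 of the 16 (68.8%, against 56.8% of all genes).

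A promoter summit was present at 22.3% of all genes. Of 10 genes of the dorsal vessel and heart, 2 had one (20%), the homeobox gene tin at rank 2009 and the muscle regulator Mef2 at rank 5892. Of 7 genes of the amnioserosa and dorsal ectoderm, 2 had one (28.6%), peb at rank 2714 and Ance at rank 6249. Of 8 genes of the endoderm and midgut, 2 had one (25%), fkh at rank 6333 and cad at rank 6641. In replicate 2 the fkh summit stood at rank 17995, outside the strongest of that library. The cad summit also fell outside the strongest, at rank 9398 in replicate 2 and rank 8043 in replicate 3. So did the Ance summit in replicate 1, at rank 8363, and the Bx summit in replicate 3, at rank 7762. Over all 6 lists, 12 of 68 genes had a promoter summit (17.6%, against 22.3% of all genes), and 49 of 68 had a summit in the window (72.1%, against 56.8%). All genes here means the 18164 on the arms, of which 13945 are protein-coding, with no matching for gene type or length. The lists were drawn up with earlier results of these libraries known, and the shares are given without a test.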

How the data were processed

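CG31627-GFP was mapped by chromatin immunoprecipitation and sequencing in 3 libraries of 1 group, grouped by the labels. The authors deposited peak lists in narrowPeak format. Of these, 5 lists on dm6 were used: 1 per library, the pooled libraries and the IDR-thresholded peaks. Lists on dm3 were not used. The deposited signal value is the authors' own, with no stated scale, and the deposited q value of each peak is stored as −log10. A q value of 0.05 or less is quoted as such, and many peaks share its ceiling. For the aligner, the peak caller and the IDR cut-off, no source used here gives a name or value. Control samples were not analysed here. With no read counts in the lists, depth is unknown and no counting interval is given.

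Summits were compared with Ensembl release 115 start sites and gene bodies on 6 arms, without transposable elements, and sequences were read from the RefSeq Release 6 assembly, whose chromosome lengths match. In replicate 2, 1 peak off these arms was left out. A library summit within 100 bp matched an IDR-thresholded summit, and the 7717 strongest peaks per library were taken to equal the IDR-thresholded number. Motifs were sought within 50 bp of summits and 31-base words across the 6 arms. Python 3.11.15, pandas 2.3.3, NumPy 2.4.6 and matplotlib 3.10.9 were used. The counting steps were tested on simulated data.

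The 6 genes, the 6 lists (68 genes, all matched, h through the current symbol hry) and the alternatives were chosen with earlier results of these data known. The text names all 6 genes, every corepressor partner, up to 4 genes with a promoter summit per list, and the 5 protein-coding genes closest to ush in count among those with at least as many. The genes ac and sc were named after their values were seen. Alternatives covered windows, flanks, matching distances, peak subsets and each replicate left out. No peak line was identical between libraries. The spread given is that between these 3 libraries.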

Additional observations from a re-analysis of the deposited data

How the results depend on the processing

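No paired analysis was possible because the study has a single group. Of 56 alternatives over 8 counts, 49 stayed within 1.5 times the reported count and 7 moved. A promoter window of 1000 bp gave 1 of the 6 genes a promoter summit (ush, against 27% of all genes), as did counting any base of the peak (ush, against 24.2%). With only the 3858 IDR-thresholded peaks of highest signal, the summits of the 6 genes numbered 11, those of ush 10, those with a GATA match 3, and list genes with a promoter summit 6. With a q value of 0.05 or less, pooled summits numbered 40.

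Leaving out each replicate kept IDR-thresholded summits that were among the strongest of both other libraries. This gave 16 to 17 summits, 15 at ush each time, and 8 list genes each time. The grn summit was lost without replicate 1 or replicate 3, which left 2 genes with a summit. Widening the flanks to 10 kb gave pnr 2 summits, grn 2 and ush 18, and removing the flanks left srp with 0. Matching within 50 bp found 13 of the 18 summits among the strongest of all 3 libraries, against 16 within 100 bp. Windows count summits of neighbouring and nested genes, depth is unknown, and replicate 2 had the fewest peaks at a q value of 0.05 or less, so a summit missing there was not detectable in its list and is not shown to be absent.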
